A study of Mus musculus with 4 samples.

Results

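The expression of 9 genes of capillary lipid uptake and its regulation was examined in endothelial cells of blood vessels (BECs) sorted from mouse ear dermis. The 9 genes, of 46517 gene identifiers in the count files, were chosen by name for their known role and not by a measured level. Earlier results of these data were known when they were chosen, so shares of the 9 set beside all genes are a description. They are *Gpihbp1*, *Lpl*, *Cd36*, *Fabp4*, *Fabp5*, *Aqp7*, *Meox2*, *Tcf15* and *Pparg*. All 9 were found by symbol and all 9 passed the limit on low counts, which asked for 10 reads or more in 2 or more of the 6 class sums. CD31+/CD45-/Lyve1- cells of adult female C57Bl/6 mice, whose age the labels give as 12 to 26 weeks, were sorted into 4 plates of 384 wells, and reads were obtained by Smart-seq2, a plate-based full-length method with a single cell per well and no molecular identifiers. The plates form 2 replicates of a plate A and a plate B, each described as cells pooled from the ears of 6 mice. Whether the replicates came from separate pools is not settled by the labels, so p-values measure the spread between these samples. The study's methods name the substrain as C57BL/6 J and give a younger age range, and the labels were followed here. The labels give no transgene and no treatment, so the comparison is between vessel classes within a replicate. The study used these cells to ask how endothelial genes are patterned from artery to vein, and here that question is put to the lipid uptake genes.

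Capillary endothelium of muscle, heart and fat takes up fatty acids that are released from circulating lipoproteins. GPIHBP1 carries lipoprotein lipase (LPL) across the endothelium and holds it on the luminal face of capillaries, where the enzyme hydrolyses triglycerides. CD36 binds and helps to take up the released long-chain fatty acids, the fatty acid binding proteins FABP4 and FABP5 carry them in the cytosol, and the aquaglyceroporin AQP7 conducts glycerol. MEOX2 and TCF15 form a pair of transcription factors known to drive *Cd36* and other uptake genes in heart endothelium, and PPARG is a nuclear receptor that activates many genes of lipid uptake.

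Wells were assigned to vessel classes by clustering without the 9 genes and without other genes of lipid handling. Of 701 wells kept out of 1536, the artery-like class held 28 wells in replicate 1 and 43 in replicate 2, the capillary-like class held 69 and 40, and the vein-like class held 52 and 32. The artery-like cluster had 10 of 11 artery markers higher than the other wells in both replicates, among them *Gja4* and *Hey1*. The exception was *Dll4*, which among the vessel classes of replicate 2 was lowest in artery-like wells. The capillary-like cluster had 5 of 7 capillary markers higher, namely *Rgcc*, *Car4*, *Cd300lg*, *Timp4* and *Kdr*, although none stood among its 10 leading genes by fold. Of the other 2, *Sgk1* was higher in vein-like than in capillary-like wells and *Btnl9* in artery-like than in capillary-like wells in both replicates, and the vein marker *Ephb4* was among the genes higher in the capillary-like cluster. The vein-like cluster had 5 of 9 vein markers higher, namely *Selp*, *Sele*, *Lrg1*, *Ackr1* and *Vwf*. Of the rest, *Ephb4* was higher in capillary-like than in vein-like wells in both replicates. In replicate 2 *Nr2f2* was highest in capillary-like and *Vcam1* in artery-like wells among the vessel classes. *Il1r1* was highest in vein-like wells in both replicates. Where a share of wells is given with an interval, the interval covers counting error only. Median reads per well were 120656 and 122630 in artery-like wells of replicates 1 and 2, 151278 and 152810.5 in capillary-like wells, and 229362.5 and 259829.5 in vein-like wells. Plates of replicate 1 held 63091443 to 74739095 reads on genes, and those of replicate 2 held 31864976 to 35546726. No 2 kept wells had identical counts. Beside the endothelial markers, summed levels of other cells' markers over the 6 groups of wells were 382 to 1364 CPM (counts per 1000000 reads of a well) for 9 mural genes, 43.1 to 960 CPM for 6 fibroblast genes, 22.1 to 120 CPM for 7 lymphatic genes and 0 to 70.5 CPM for 4 keratinocyte genes.

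Positions are given on the mm10 assembly. *Gpihbp1* (ENSMUSG00000022579) is at chr15:75596628-75599481 on the plus strand and *Lpl* (ENSMUSG00000015568) at chr8:68880491-68907448 on the plus strand. *Cd36* (ENSMUSG00000002944) is at chr5:17781690-17888801 on the minus strand and *Aqp7* (ENSMUSG00000028427) at chr4:41033074-41048139 on the minus strand. *Fabp4* (ENSMUSG00000062515) at chr3:10204088-10208576 on the minus strand and *Fabp5* (ENSMUSG00000027533) at chr3:10012548-10016607 on the plus strand share a chromosome. *Meox2* (ENSMUSG00000036144) is at chr12:37108540-37179534, *Tcf15* (ENSMUSG00000068079) at chr2:152143561-152149097 and *Pparg* (ENSMUSG00000000440) at chr6:115360951-115490399, all on the plus strand. No annotated exon of another gene overlapped an exon of any of the 9. Reads of 50 bases can nevertheless be shared with copies elsewhere. Of the 50-base stretches of *Fabp5* transcripts, 5.48% also occurred in transcripts of other genes, among them *Gm6166* and *Fabp5l2*, against 3.87% for *Aqp7*, 1.36% for *Lpl* and 0% for the other 6 genes, so *Fabp5* counts are less certain.

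RefSeq promoter sequences of assembly GRCm38.p6 were matched for 4 of the 9 genes, *Cd36*, *Aqp7*, *Meox2* and *Pparg*. The 250 bases before the start of *Cd36* and *Aqp7* are shown because these 2 genes had an unadjusted p under 0.05 against vein-like wells from both sides, that is, in capillary-like and in artery-like wells. Capitals mark the E-box CANNTG, the motif of basic helix-loop-helix factors such as TCF15, and the hexamer AGGTCA, the motif of nuclear receptors such as PPARG, on either strand. The *Cd36* window is chr5:17835897-17836146 and the *Aqp7* window is chr4:41048137-41048386, both on the minus strand and written from 5′ to 3′.
Cd36: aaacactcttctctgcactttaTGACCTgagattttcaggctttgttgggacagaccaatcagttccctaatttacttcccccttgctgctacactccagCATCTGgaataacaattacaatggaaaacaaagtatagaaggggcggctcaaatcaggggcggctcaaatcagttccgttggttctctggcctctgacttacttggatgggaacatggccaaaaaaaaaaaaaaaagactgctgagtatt
Aqp7: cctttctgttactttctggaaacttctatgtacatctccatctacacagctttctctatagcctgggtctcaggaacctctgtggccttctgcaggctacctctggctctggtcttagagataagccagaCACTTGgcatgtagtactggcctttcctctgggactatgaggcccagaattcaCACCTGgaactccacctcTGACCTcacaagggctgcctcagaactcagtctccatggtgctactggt
The *Cd36* window lies inside the annotated span of the gene and held 1 E-box and 1 AGGTCA hexamer. The *Aqp7* window held 2 E-boxes and 1 hexamer. Among 32851 windows of the same length, 66.2% held an E-box and 14% held the hexamer on either strand. The *Pparg* window held 1 hexamer and 0 E-boxes, and the *Meox2* window held 1 E-box and 0 hexamers.

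*Gpihbp1*, which encodes the capillary anchor of lipoprotein lipase, had its highest mean level in capillary-like wells in both replicates. On the plates of replicate 1 it reached 1953 and 2222 CPM in capillary-like wells, 1148 and 1344 CPM in artery-like wells and 348 and 636 CPM in vein-like wells. On those of replicate 2 it reached 649 and 409 CPM in capillary-like wells, 108 and 148 CPM in artery-like wells and 198 and 165 CPM in vein-like wells. Every plate thus had more *Gpihbp1* in capillary-like than in the other wells, but the capillary-like level of replicate 2 lay below the artery-like level of replicate 1. Over the 2 replicates the capillary-like level was 1331 ± 1100 CPM (SD, n = 2), the artery-like level 706 ± 813 CPM and the vein-like level 349 ± 226 CPM. The wells of the classes overlapped: in replicate 2 the quartiles were 123 and 789 CPM in capillary-like wells, 0 and 118 CPM in artery-like wells and 3.52 and 241 CPM in vein-like wells. In that replicate 82.5% of capillary-like wells held a *Gpihbp1* read (exact 95% interval 67.2 to 92.7%), against 44.2% of artery-like wells (29.1 to 60.1%) and 78.1% of vein-like wells (60.03 to 90.7%). In replicate 1 every well of the 3 classes held a read, so the share there separated nothing.

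*Lpl*, which encodes the lipase itself, was low in these cells and its pattern differed between the replicates. In capillary-like wells it had 211 and 322 CPM on the plates of replicate 1 and 4.09 and 3.22 CPM on those of replicate 2. In artery-like wells the replicates had 59.1 and 16.03 CPM, and in vein-like wells 21.9 and 20.5 CPM. A minority of wells carried the capillary-like level of replicate 1: 22 of 69 reached 100 CPM while the median was 12.8 CPM. The summed level of 6 fibroblast markers in these wells was 960 CPM, against 101 to 103 CPM in the other classes of that replicate, but few wells carried it: the medians were 88.9 CPM in capillary-like, 81.1 CPM in artery-like and 51.7 CPM in vein-like wells. In the 39 capillary-like wells with under 100 CPM of those markers *Lpl* was at 310 CPM, a limit chosen after seeing the data. In vein-like wells the same limit left *Lpl* at 6.15 and 2.66 CPM in the replicates. Of the 7 adipocyte markers, *Adipoq*, *Plin1*, *Lep* and *Adig* had no read in any class of either replicate, and the summed level of the 7 was 0.0549 to 24.1 CPM. The 9 leukocyte markers summed to 0 to 9.26 CPM.

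**Figure D1:**
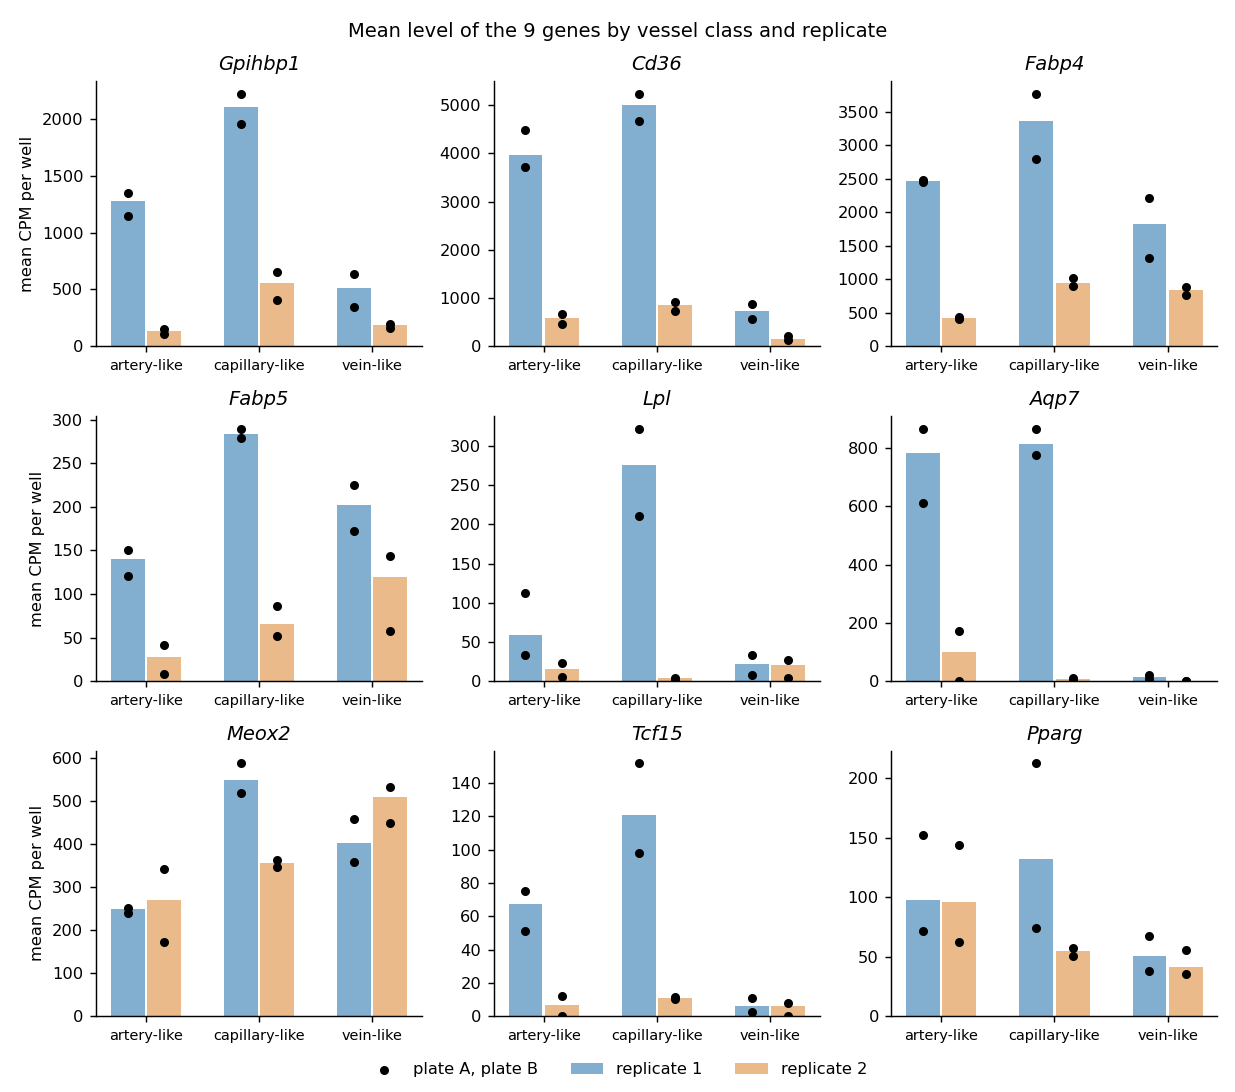
Mean level in CPM per well (vertical axes, linear from 0) of each of the 9 genes in artery-like, capillary-like and vein-like wells. Bars are the 2 replicates and points the single plates: *Gpihbp1*, *Cd36*, *Fabp4* and *Tcf15* have their tallest bar at capillary-like wells in both replicates, that of *Tcf15* in replicate 2 resting on 2 wells (on summed counts *Cd36* and *Fabp4* were not highest there in replicate 2; with a limit of 300 CPM on non-endothelial genes this held for *Gpihbp1* and *Tcf15*, and with 10 CPM for *Tcf15* and *Pparg*), and most bars of replicate 2 are a fraction of those of replicate 1.

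*Cd36*, the fatty acid translocase, was high in capillary-like and artery-like wells and low in vein-like wells in both replicates. The plates of replicate 1 gave 4678 and 5239 CPM in capillary-like wells, 4491 and 3711 CPM in artery-like wells and 570 and 868 CPM in vein-like wells. The plates of replicate 2 gave 928 and 723 CPM, 465 and 659 CPM, and 121 and 205 CPM in the same order. Within each replicate no vein-like plate overlapped a plate of the other classes, whereas replicate 2 lay entirely below the capillary-like and artery-like plates of replicate 1. On the summed and scaled counts used for the tests, the artery-like level of replicate 2, at 791 CPM, lay above the capillary-like level, at 626 CPM. The means over replicates were 2924 ± 2939 CPM (SD, n = 2) in capillary-like, 2270 ± 2392 CPM in artery-like and 441 ± 418 CPM in vein-like wells. In replicate 2 the mean rested on part of the wells: the median of capillary-like wells was 11.6 CPM, 15 of 40 reached 100 CPM, and a single well held 28.5% of the reads. The share of wells at 100 CPM or more separated the classes less than the mean, at 37.5% of capillary-like, 41.9% of artery-like and 28.1% of vein-like wells in replicate 2.

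*Fabp4* and *Fabp5*, the cytosolic carriers, differed less between classes. *Fabp4* had 3358 and 948 CPM in capillary-like wells of replicates 1 and 2, 2461 and 422 CPM in artery-like wells and 1819 and 845 CPM in vein-like wells. The capillary-like mean over wells was the highest in both replicates, but the plates of replicate 2 gave 903 and 1014 CPM in capillary-like wells and 877 and 763 CPM in vein-like wells, which lie close together. On summed and scaled counts of that replicate the vein-like level, at 856 CPM, lay above the capillary-like level, at 785 CPM. *Fabp5* had 284 and 65.5 CPM in capillary-like wells, 141 and 27.7 CPM in artery-like wells and 202 and 120 CPM in vein-like wells, so its highest class was capillary-like in replicate 1 and vein-like in replicate 2. Artery-like wells were lowest for *Fabp5* in both replicates.

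*Aqp7*, the glycerol channel, was nearly absent from vein-like wells. In replicate 1 the plates gave 865 and 778 CPM in capillary-like wells, 611 and 867 CPM in artery-like wells and 6.36 and 21.0 CPM in vein-like wells. In replicate 2 they gave 11.3 and 2.57 CPM, 0.456 and 173 CPM, and 0 and 0.568 CPM. In replicate 1, 81.2% of capillary-like and 71.4% of artery-like wells reached 100 CPM, against 1.92% of vein-like wells. In replicate 2, 1 of 40 capillary-like and 2 of 43 artery-like wells did, and a single well held 70.6% of the artery-like reads, so the class levels of *Aqp7* in replicate 2 rest on very few wells.

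No difference between classes passed an adjusted p of 0.05 for the regulators as reported. *Meox2*, a homeobox factor, had 547 and 357 CPM in capillary-like wells of replicates 1 and 2, 248 and 270 CPM in artery-like wells and 401 and 508 CPM in vein-like wells. Its artery-like level was the lowest in both replicates, and its highest class was capillary-like in replicate 1 and vein-like in replicate 2. *Tcf15*, the basic helix-loop-helix partner of MEOX2, had 121 CPM in capillary-like, 67.6 CPM in artery-like and 6.12 CPM in vein-like wells of replicate 1. In replicate 2 it had 10.9, 6.85 and 5.78 CPM, with a read in 2 of 40, 2 of 43 and 3 of 32 wells, a depth at which no order can be read. *Pparg* had 132 and 54.4 CPM in capillary-like, 97.4 and 96.4 CPM in artery-like and 50.9 and 40.9 CPM in vein-like wells, and vein-like wells were lowest in both replicates. Most *Pparg* reads came from few wells, with 14 of 69 capillary-like wells of replicate 1 and 3 of 40 of replicate 2 at 100 CPM or more.

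To set the genes beside each other, levels were divided by the summed exon length of each gene, as CPM per kilobase. That length was 4489 bases in 1 block for *Fabp4*, its whole annotated span, and 3567 bases in 2 blocks for *Fabp5*. Annotated exons of *Fabp4* thus cover any intron, so its level per kilobase may be too low. The places of *Fabp4* and *Fabp5* in the orders below are therefore not settled. In capillary-like wells the order of these levels was *Cd36* at 815 ± 819 (SD, n = 2), *Gpihbp1* at 521 ± 431, *Fabp4* at 480 ± 380, *Meox2* at 192 ± 57.2, *Aqp7* at 145 ± 202, *Tcf15* at 67.2 ± 79.2, *Fabp5* at 49.0 ± 43.3, *Pparg* at 31.6 ± 18.6 and *Lpl* at 13.3 ± 18.4. Neighbours in this order of means over 2 replicates did not differ beyond their spread, and the order was not the same in both replicates. In vein-like wells the order by the same measure opened with *Fabp4* at 297 ± 154, *Meox2* at 193 ± 32.1, *Gpihbp1* at 136 ± 88.4 and *Cd36* at 123 ± 117, and closed with *Aqp7* at 2.59 ± 3.59 and *Lpl* at 2.02 ± 0.0974. By these lengths *Cd36* was first of the 9 in capillary-like wells of replicate 1, a place that a shorter length for *Fabp4* could change. In replicate 2 *Cd36*, *Gpihbp1* and *Fabp4* lay close together, at 236, 217 and 211 CPM per kilobase, and no order among them can be read. In vein-like wells it was 2nd in replicate 1, at 205 CPM per kilobase, and 4th in replicate 2, at 40.3 CPM per kilobase.

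**Figure D2:**
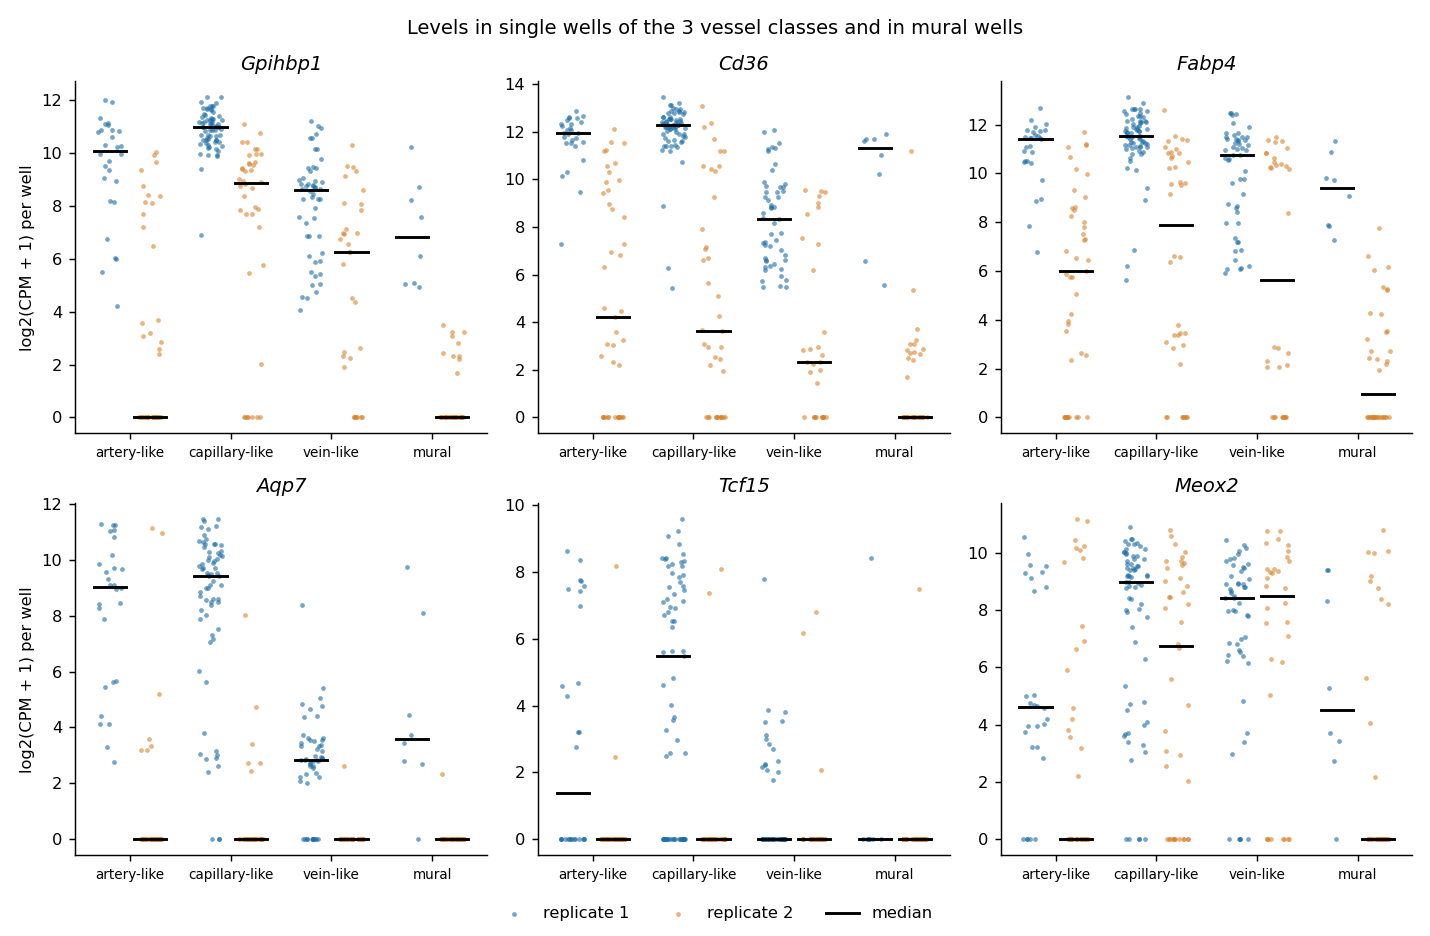
Level in single wells as log2(CPM + 1) for 6 of the genes, in the 3 vessel classes and in mural wells, coloured by replicate with a black line at the median. Replicate 1 forms compact groups with a read in nearly every well for *Gpihbp1*, *Cd36* and *Fabp4*, and replicate 2 spreads from 0 to the level of replicate 1.

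The 2 replicates stood apart for these genes more than for most. The level in replicate 1 was 3.81 times that in replicate 2 for *Gpihbp1*, 5.91 times for *Cd36* and 3.54 times for *Fabp4* in capillary-like wells. In log2 units of scaled sums, the median difference of replicate 1 over replicate 2 in capillary-like wells was 2.02 for the 9 genes, 8 of which exceeded 1, and 0.06 for 2265 genes with a mean above 100 CPM, of which 13.0% exceeded 1. The other classes gave 2.67 against 0.16 in artery-like wells and 0.76 against 0.04 in vein-like wells. Biological and technical parts of this difference cannot be told apart. Several other measures moved with it, and their part in it was not tested. Spike-in reads made up 0.274% of reads in replicate 1 and 2.36% in replicate 2. The 7 capillary markers summed to 7033 and 3444 CPM in capillary-like wells, to 4104 and 1189 CPM in artery-like wells and to 2918 and 3037 CPM in vein-like wells of replicates 1 and 2. The 9 mural markers summed to 963 to 1364 CPM in the classes of replicate 1 and 382 to 450.5 CPM in those of replicate 2. Reads of the same genes also appeared in wells of another cell type. In mural wells, defined by at least 300 CPM of *Pdgfrb* or *Kcnj8* and under 100 CPM of *Pecam1*, the median *Cd36* level was 2579 CPM in the 8 wells of replicate 1 and 0 CPM in the 38 wells of replicate 2. The former lies above the vein-like median of 326 CPM in replicate 1, so *Cd36* reads of vein-like wells there do not exceed those of a class outside the endothelium. The mural wells had median depths of 197462 and 170239 reads. The median in mural wells of replicate 1 was 129 CPM for *Gpihbp1*, 688 CPM for *Fabp4* and 10.96 CPM for *Aqp7*, all below the capillary-like medians of 2007, 2981 and 683 CPM. All 8 mural wells of replicate 1 held reads of *Gpihbp1*, *Cd36* and *Fabp4*, so the share of wells with a read tells nothing of expression there. In replicate 2, 26.3% of mural wells held a *Gpihbp1* read (13.4 to 43.1%), 36.8% a *Cd36* read and 2.63% an *Aqp7* read. Mural wells had more *Lpl* than the capillary-like wells, with means of 537 and 420 CPM in replicates 1 and 2. The part of such reads in the class differences was not tested.

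Differences between classes were tested with edgeR's quasi-likelihood test on counts summed per class and replicate, with the replicate as a block, over 14036 genes. The classes were formed on other genes of the same wells, so these p-values are not independent of the clustering, and the 4 comparisons share sums. None of the 9 genes passed an adjusted p of 0.05 in any comparison, and nearly no gene did: the share of all genes called was 0% for capillary-like wells against the mean of the other classes, 0% against artery-like wells, 0.0142% against vein-like wells (*Selp* and *Lbp*, both lower), and 0.00712% for artery-like against vein-like wells (*Selp*, lower). At an unadjusted p under 0.05, 547 genes or 3.9% passed in the first of these comparisons, 800 or 5.7% in the second, 513 or 3.65% in the third and 1133 or 8.07% in the fourth. The Wald test of DESeq2, run on these sums, called 157, 437, 175 and 708 genes, and limma on mean CPM per well called 0, 0, 2 and 22. On sums simulated for capillary-like wells against the others, the Wald test made 196 false calls, edgeR 13 and limma 7. Of 100 changes of 4-fold they recovered 22, 10 and 7 in that order, and of 100 changes of 16-fold 76, 47 and 46. edgeR thus missed most changes of either size. The other comparisons were not simulated.

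Against the mean of the other classes, all 9 genes were fitted above 0, with a median log2 fold change of 0.80, beside 53.2% of all genes and a median of 0.07. That direction was not kept by *Fabp5* and *Meox2* with classes taken from marker scores, by *Fabp4* and *Meox2* with a stricter limit on non-endothelial genes, or by *Lpl* on plate A alone. The difference had the same sign in both replicates for 6 of the 9, all higher, whereas 29.6% of all genes were higher in both. The 6 include *Tcf15*, whose order in replicate 2 cannot be read. At an unadjusted p under 0.05, 2 of the 9 passed, beside the 3.9% of all genes. These were *Gpihbp1* at 1.46 (SE 0.43, adjusted p = 1 by edgeR) and *Cd36* at 1.15 (SE 0.22, adjusted p = 1 by edgeR). *Tcf15* was at 1.73 (SE 0.95), *Aqp7* at 1.19 (SE 1.24), *Lpl* at 0.80 (SE 1.48), *Pparg* at 0.45 (SE 0.49), *Fabp5* at 0.42 (SE 0.48), *Fabp4* at 0.39 (SE 0.31) and *Meox2* at 0.24 (SE 0.29). For *Lpl* the value was 2.995 within replicate 1 and -1.68 within replicate 2, and for *Aqp7* it was 3.02 and -2.07, and for *Meox2* 0.55 and -0.09, so these 3 genes have no common direction.

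Against vein-like wells alone, 4 of the 9 had an unadjusted p under 0.05, all fitted higher in capillary-like wells, beside 3.65% of all genes in either direction. *Cd36* was higher by 2.40 on the log2 scale (SE 0.28), or 5.27-fold, with 2.80 within replicate 1 and 1.98 within replicate 2 (adjusted p = 0.301 by edgeR). *Gpihbp1* was at 1.80 (SE 0.53), with 2.19 and 1.54 within the replicates. *Aqp7* was at 5.57 (SE 1.61), with 6.35 and 2.56, and *Tcf15* at 3.04 (SE 1.26), with 4.94 and 1.64. In replicate 2 both values rest on few wells with reads, 2 of 40 against 3 of 32 for *Tcf15* and 6 of 40 against 1 of 32 for *Aqp7*, so no order can be read there, and the pooled *Aqp7* value depends on the small count added to each sum and is no measure of size. The other 5 lay between -0.20 for *Fabp5* and 0.92 for *Pparg*.

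*Cd36* against vein-like wells depended on the test used. Its adjusted p was below 0.05 in 6 of the 14 settings run, at 1.82e-05 with the Wald test of DESeq2, 0.0472 with limma on mean CPM, 0.00651 with edgeR without the filter on low counts, 0.0447 with edgeR and a looser limit on non-endothelial genes, 0.00741 with edgeR on wells thinned to 20000 reads and 0.0118 with limma on mean log2 CPM, a setting chosen after seeing the data. The fitted difference lay between 2.01 and 3.04 in all 14. *Aqp7* passed in 2 of the 14 and *Gpihbp1* in 1.

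Capillary-like and artery-like wells were not separated by any of the 9 at an unadjusted p under 0.05 with edgeR as reported. Over the 14 settings, 1 call each was made for *Aqp7*, at -3.46 (adjusted p = 0.0161 with the Wald test of DESeq2), and for *Gpihbp1*, at 2.90 (adjusted p = 0.0257 with limma on mean log2 CPM). *Gpihbp1* was at 1.13 (SE 0.53, adjusted p = 0.852 by edgeR), with 0.48 within replicate 1 and 2.04 within replicate 2. *Cd36* was at -0.10 (SE 0.27), and this sign turned in 7 of the other settings. Between artery-like and vein-like wells 2 of the 9 had an unadjusted p under 0.05, both higher in artery-like wells, beside 8.07% of all genes. These were *Cd36* at 2.49 (SE 0.28, adjusted p = 0.130 by edgeR) and *Aqp7* at 8.76 (SE 1.76, adjusted p = 0.351 by edgeR). *Cd36* had an adjusted p under 0.05 in 6 of the 14 settings, with fitted differences of 1.59 to 3.45 over all of them, and *Aqp7* in 4. *Fabp5* at -1.78 and *Meox2* at -2.89 passed with limma on mean log2 CPM alone. The *Aqp7* value rests on vein-like wells with 0.160 CPM in replicate 2 and depends on the small count added to each sum, and it is no measure of size either.

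**Figure D3:**
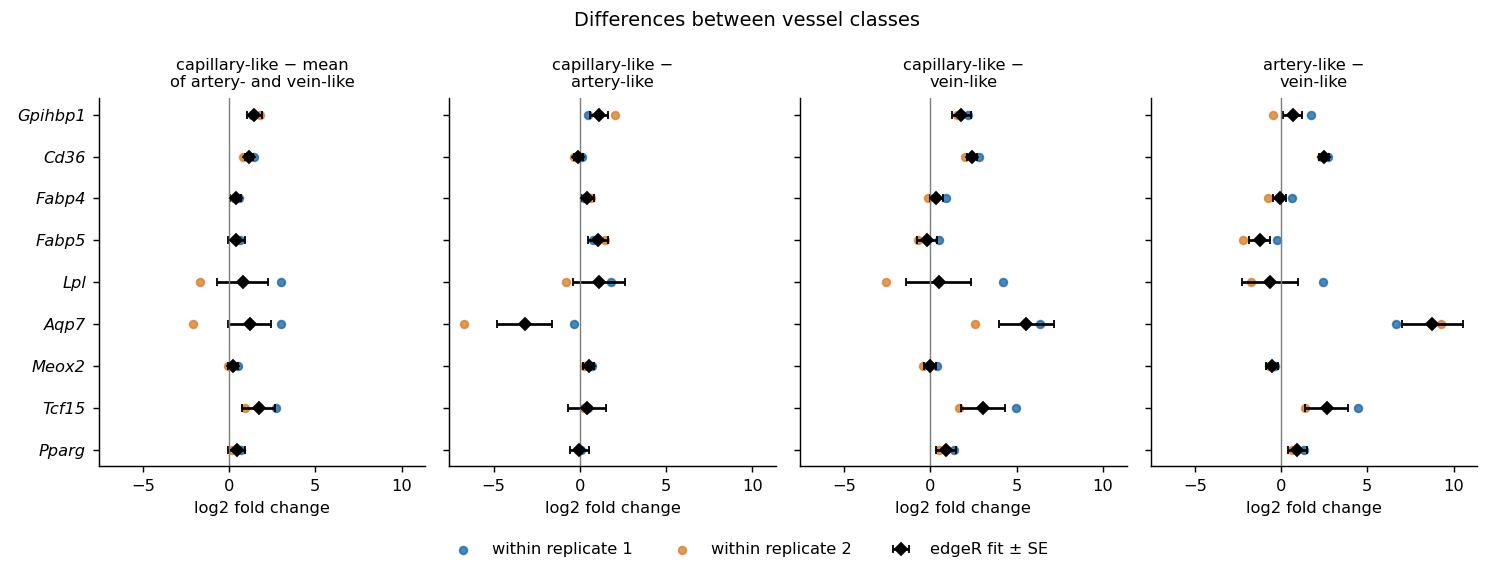
Log2 fold change of the 9 genes in the 4 comparisons (horizontal axes), with the edgeR estimate and its SE as black diamonds and the values within each replicate as coloured points. *Cd36* lies near 2.4 against vein-like wells from both capillary-like and artery-like wells, with both replicates on the same side, and *Lpl* and *Aqp7* lie on opposite sides of 0 in the 2 replicates in the first panel.

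Across single wells, *Cd36*, *Fabp4* and *Fabp5* were positively correlated in every class and replicate. Correlations are Spearman's rho of log2(CPM + 1) within a class and replicate, given as a description, since wells of a class share plates, differ in depth and come from the same pooled cells. *Cd36* and *Fabp4* had a rho of 0.61 across the 69 capillary-like wells of replicate 1 and 0.64 across the 40 of replicate 2, with 0.48 and 0.47 in vein-like wells and 0.41 and 0.30 in artery-like wells. In capillary-like wells of replicate 2 some wells had the genes at 100 CPM or more and others had few or no reads. There 14 wells had at least 100 CPM of both, which is 93.3% of the 15 wells with *Cd36* and 70% of the 20 wells with *Fabp4*. *Fabp4* and *Fabp5* had 0.49 and 0.59 in capillary-like wells, 0.76 and 0.70 in vein-like wells and 0.17 and 0.21 in artery-like wells. *Cd36* and *Fabp5* lay between 0.13 and 0.37. These 3 pairs were positive in all 6 groups of wells.

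*Gpihbp1* went with *Cd36* in capillary-like wells, with 0.51 and 0.33, and in artery-like wells, with 0.48 and 0.22, but not in vein-like wells, where rho was 0.04 and 0.02. With *Fabp4* it was positive in capillary-like wells, at 0.57 and 0.26, and below 0 in vein-like wells, at -0.27 and -0.18. The pair of regulators *Meox2* and *Tcf15* had -0.03 and 0.16 in capillary-like wells, where *Tcf15* had reads in 2 wells of replicate 2. *Tcf15* had 0.34 with *Cd36*, 0.40 with *Fabp4* and 0.35 with *Fabp5* in replicate 1, and -0.12, -0.03 and 0.13 in replicate 2. In capillary-like wells *Meox2* had 0.03 and -0.02 with *Cd36* and -0.04 and -0.08 with *Fabp4*. *Pparg* had 0.10 and 0.09 with *Cd36* and 0.04 and 0.07 with *Fabp4* in the same wells. In vein-like wells of both replicates, by contrast, *Meox2* was positively correlated with *Fabp4* and negatively with *Gpihbp1*. Over all 36 pairs in capillary-like wells the median rho was 0.20 in replicate 1, with 31 pairs above 0, and 0.07 in replicate 2, with 22. Reads per well moved with some of the genes: rho with depth in capillary-like wells of replicates 1 and 2 was -0.40 and 0.06 for *Gpihbp1*, -0.35 and -0.32 for *Cd36* and -0.49 and -0.10 for *Fabp4*. In wells thinned to 20000 reads the median over pairs was 0.21 and -0.03 in replicates 1 and 2. There 30 and 14 of the 36 pairs lay above 0. The counts of pairs above 0, with or without thinning, were not set beside those of other gene pairs in these wells. They are a description only and show no co-expression of the genes as a set.

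**Figure D4:**
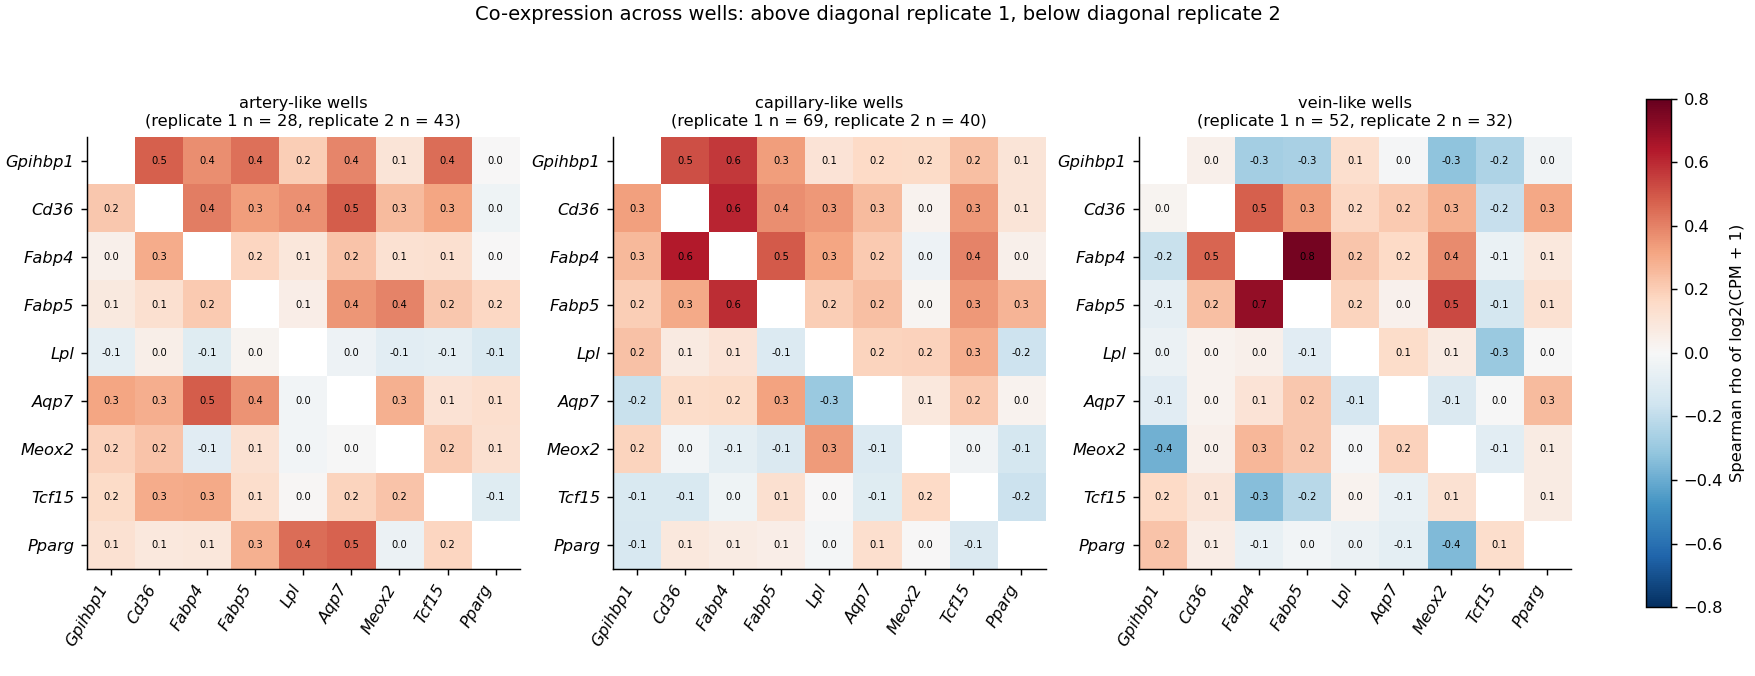
Spearman's rho between the 9 genes across artery-like, capillary-like and vein-like wells, with replicate 1 above and replicate 2 below the diagonal and colour from -0.8 to 0.8. *Cd36* with *Fabp4* and *Fabp4* with *Fabp5* are positive on both sides of the diagonal in each panel, and *Gpihbp1* with *Cd36* or *Fabp4* is positive in capillary-like and near or below 0 in vein-like wells.

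Over all 149 and 115 wells of the 3 classes and 5500 genes with a read in at least 20% of them, the genes most like *Gpihbp1* by mean rho over the replicates were *Rgcc* (0.47), *Col4a1* (0.44), *Gng11* (0.44), *Cd36* (0.42) and *Cd300lg* (0.41). *Rgcc* and *Cd300lg* are capillary markers used to name the classes. Most like *Cd36* were *Fabp4* (0.54), *Gpihbp1* (0.42), *Afdn* (0.39), *Cav1* (0.37) and *Rgcc* (0.36), and in replicates 1 and 2 the value was 0.70 and 0.14 for *Gpihbp1*, 0.60 and 0.15 for *Cav1* and 0.60 and 0.12 for *Rgcc*. Most like *Fabp4* were *Cd36* (0.54), *Fabp5* (0.54), *Tmsb4x* (0.31), *Fbln2* (0.30) and *Gpihbp1* (0.27), the last at 0.46 and 0.07 in the replicates. Most like *Meox2* were *Tspan7* (0.30), *Sult1a1* (0.28), *C1qtnf9* (0.26), *Mtx1* (0.26) and *Selenop* (0.26), and none of the other 8 genes was among them. Of these, *Tspan7* had 0.31 and 0.30 in the replicates, whereas *Mtx1* had 0.13 and 0.39 and *Selenop* 0.10 and 0.41. *Tcf15* had reads in too few wells of replicate 2 for this measure.

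The other genes of lipid uptake and handling were counted as a list of 63, of which 43 passed the limit on low counts and 0 were called in any of the 4 comparisons. Against the mean of the other classes 0 of the 43 had an unadjusted p under 0.05, beside 3.9% of all genes. Of the 43, 26 or 60.5% were fitted above 0, beside 53.2% of all genes, and the median log2 fold change was 0.32, beside 0.07. Against artery-like wells 3 had an unadjusted p under 0.05 (2 higher, 1 lower), beside 5.7% of all genes. Against vein-like wells 0 did, beside 3.65%. For artery-like against vein-like wells 3 did, all lower, beside 8.07%. None of the 7 other fatty acid binding proteins passed the limit on low counts, although 4 of them, *Fabp1*, *Fabp3*, *Fabp9* and *Fabp12*, had a few reads, at 1.35 CPM or less in each class and replicate. Of the 8 lipase and lipoprotein receptor genes tested, 7 were fitted above 0 with a median of 1.41. Of these 8, 3 or 37.5% were higher in both replicates, near the 29.6% of all genes. Both fatty acid transport proteins tested were fitted below 0 and were lower in both replicates. The 9 oxidation genes had a median of 0.26 and the 10 regulators tested a median of 0.34.

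By mean level per kilobase in capillary-like wells the list was led by *Scarb1*, which encodes the HDL receptor SR-B1, at 321 CPM per kilobase, followed by *Mgll*, the monoglyceride lipase, at 148, *Pnpla2*, the adipose triglyceride lipase, at 103, and *Meox1*, the paralogue of *Meox2*, at 82.6. By replicate *Scarb1* was at 315 and 327 CPM per kilobase there, below *Cd36*, *Gpihbp1* and *Fabp4* in replicate 1 and above all 9 genes in replicate 2. Its place against *Fabp4* and *Fabp5* depends on the exon lengths taken for them. Against artery-like wells *Scarb1* was at 0.79 on the log2 scale (SE 0.24, adjusted p = 0.852 by edgeR), and for artery-like against vein-like wells at -0.94 (SE 0.24, adjusted p = 0.535 by edgeR). *Meox1* was at 1.62 against artery-like wells (SE 0.81, adjusted p = 0.852 by edgeR) and at -2.41 for artery-like against vein-like wells (SE 0.82, adjusted p = 0.597 by edgeR). Like *Meox2*, it had its lowest level in artery-like wells.

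**Figure D5:**
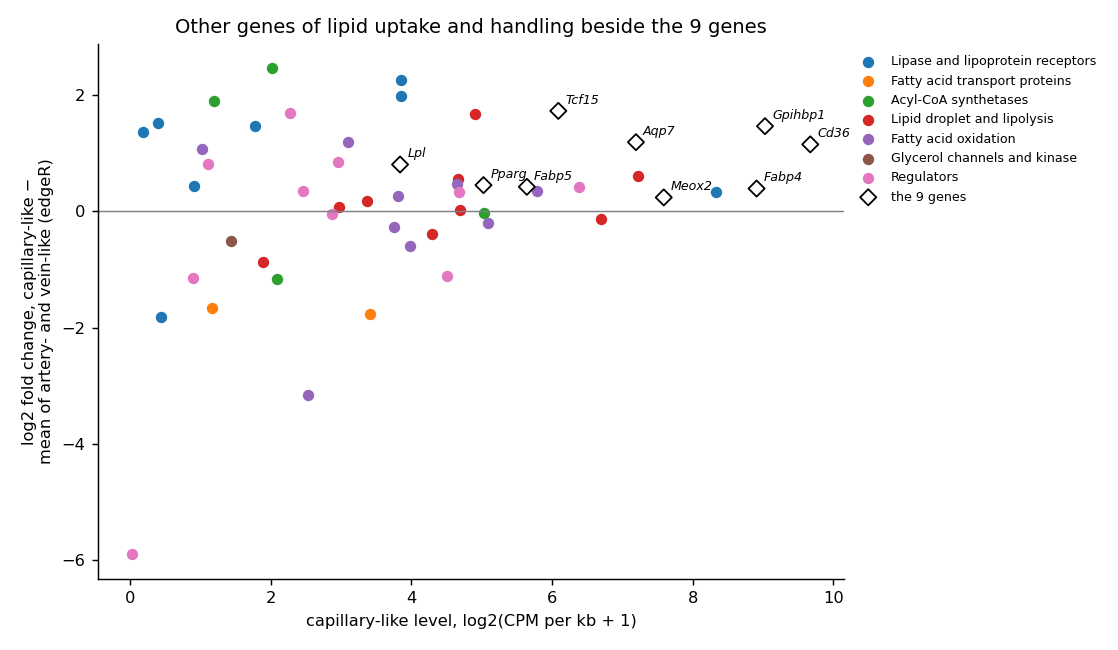
Log2 fold change of capillary-like wells over the mean of the other classes (vertical axis, edgeR) against the level in capillary-like wells as log2(CPM per kilobase + 1) (horizontal axis), for the 43 other genes tested, coloured by group, and the 9 genes as open diamonds. The 9 genes all lie above 0, with *Cd36*, *Gpihbp1* and *Fabp4* at the highest levels, and the other genes spread on both sides of 0.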

How the data were processed

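The authors sorted single cells into plates, made Smart-seq2 libraries and sequenced single 50-bp reads. Per the submitters' processing notes and the study's methods, reads were aligned to mm10 with TopHat2 2.1.1, duplicated reads were removed with SAMtools 0.1.18 and reads per gene were counted with Subread 1.4.6-p5. Each deposited file holds raw read counts, with genes in rows and wells in columns, without unique molecular identifiers and without strand, so removal of duplicated reads limits the count that a highly expressed short gene can reach.

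Of 46517 gene identifiers, 46005 were matched to symbols and 512 were not, and 92 spike-in rows were left out of library sizes. Of 1536 wells, 1347 had at least 600 counts, 500 to 8000 genes and at least 2 of 3 BEC genes, and 701 of these had under 100 CPM of each of 5 non-BEC genes. No doublet caller was run. Wells were scaled with scran 1.30.0 and clustered with leidenalg 0.10.2 without the genes described, at resolution 0.6, giving 8 clusters. Clusters were named from their markers, and those with no name or with the name of another cell type entered no class.

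Counts were summed per class and replicate into 6 sums and tested with edgeR 4.0.16 (quasi-likelihood, TMM scaling, a replicate block and 2 residual degrees of freedom) over the 14036 genes that had 10 or more reads in 2 or more sums, with Benjamini-Hochberg adjustment over all of them. The block was used since the 3 classes of a replicate were sorted on shared plates. Deviations of same-numbered sums correlated at 0.128, 0.0799 and 0.105 between class pairs. The alternatives were DESeq2 1.42.0, limma 3.58.1 on log2(CPM + 1), other filters, classes, plates and depths, and 2 alternatives chosen after seeing the data, namely limma on the mean of log2(CPM + 1) and wells low in fibroblast markers. Scripts were tested on simulated data. Levels between genes were divided by summed exon length (GENCODE vM21). Intervals are exact binomial 95% intervals.

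The 9 genes, the list of 63 others and the class markers were chosen with earlier results of these data known. All 9 are named, as are the 4 genes of the list with the highest level per kilobase in capillary-like wells and the 5 genes most like each of *Gpihbp1*, *Cd36*, *Fabp4* and *Meox2*. The same was planned for *Tcf15*, which had a read in too few wells.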

Additional observations from a re-analysis of the deposited data

Results flagged for a closer look

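A cluster of 78 wells in replicate 1 and 64 in replicate 2 had no vessel marker higher in both replicates and entered no comparison, yet it held the genes near or above the capillary-like level in replicate 1. *Gpihbp1* was at 2038 and 251.1 CPM in replicates 1 and 2, and *Cd36*, which stood among the 10 leading genes of the cluster, at 5376 and 651.6 CPM. *Lpl* was at 429.9 and 15.52 CPM and *Tcf15* at 150.6 and 118.8 CPM, both above the capillary-like means in both replicates. The 7 capillary markers summed to 6814 CPM in this cluster in replicate 1 and 1250.3 CPM in replicate 2. In replicate 2 it also held 3412 CPM of lymphatic, 1814 CPM of fibroblast and 594 CPM of leukocyte markers, against 52.1, 416 and 1.77 CPM in replicate 1. The medians in replicate 2 lay far below these means, at 159, 71.5 and 0 CPM. Of the 64 wells, 38 had at least 100 CPM of lymphatic, 28 of fibroblast and 5 of leukocyte markers. The part of these other markers in the levels was not tested. The wells of this cluster in replicate 2 had a median of 16476 reads, against 127216 in replicate 1, and the part of depth in these levels was not tested. *Pparg* in capillary-like wells had 1 plate far from the other 3, plate A of replicate 1 at 212.7 CPM against 50.3 to 73.9 CPM. It was the single such case among 36 groups of 4 plates. The rule marks about 1 in 20 groups of independent values by chance, but plates of a replicate are not independent, so that rate may not hold here.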

How the results depend on the processing

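None of the 9 genes passed an adjusted p of 0.05 as reported, and the tests rest on 2 residual degrees of freedom and a median dispersion of 0.767. Of the log2 fold changes of the 9 genes refitted with a test, 397 kept their sign and their side of the threshold, 24 passed the threshold and 47 turned sign. Genes called in the comparisons of capillary-like wells with the mean of the others, with artery-like and with vein-like wells, and of artery-like with vein-like wells, numbered 0, 0, 2 and 1 as reported. They numbered 157, 437, 175 and 708 with the Wald test of DESeq2, 33, 43, 366 and 1476 with limma on mean log2 CPM, 0, 0, 2 and 22 with limma on mean CPM, 1, 6, 11 and 47 without the filter on low counts, and 0, 8, 9 and 48 in wells thinned to 20000 reads. With DESeq2 size factors they were 0, 0, 1 and 1, with the next clustering resolution 0, 0, 1 and 1, and with classes from marker scores 0 in all. A limit of 10 CPM on non-BEC genes gave 1, 1, 0 and 4, from as few as 1 artery-like well in replicate 1, and a limit of 300 CPM gave 0, 1, 3 and 6. Plate A alone gave 0, 0, 0 and 3, and plate B alone 0, 0, 0 and 2. Without the replicate block the counts were 0, 0, 2 and 4. The cause of these differences was not tested. The number of the 9 genes highest in capillary-like wells in both replicates was 4 as reported and with scran size factors, among them *Tcf15*, whose order in replicate 2 cannot be read, and *Cd36* and *Fabp4*, which were not highest there in replicate 2 on summed counts, and 2 under either other limit.

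Signs turned as follows, in log2 units. For capillary-like against artery-like wells *Cd36* was at 0.41 with marker scores, 0.44 and 0.16 with limma on mean CPM and mean log2 CPM, 0.052 without the replicate block, 0.23 at the 300 CPM limit, 0.034 on plate B and 0.27 in thinned wells. *Pparg* was at 0.15 with marker scores, 0.017 without the filter, 1.87 at the 10 CPM limit and 0.053 thinned. *Tcf15* was at -0.086 with marker scores and -0.14 on plate B, *Aqp7* at 0.56 at the 300 CPM limit and 0.069 on plate A, and *Fabp4* at -0.46 at the 10 CPM limit. Against the mean of the others, *Fabp5* and *Meox2* were at -0.16 with marker scores, *Fabp4* at -0.19 and *Meox2* at -0.073 at the 10 CPM limit, and *Lpl* at -0.38 on plate A. Against vein-like wells, *Fabp4* was at -0.37 with marker scores, and *Fabp5* at 0.17 without the replicate block, 0.22 and 0.13 at the 10 and 300 CPM limits and 0.85 on plate B. *Meox2* there was at 0.00283 and 0.00293 with DESeq2 size factors and the Wald test, 0.13 at the 300 CPM limit, 0.24 on plate B and 0.087 thinned, and *Lpl* at -0.83 on plate A. For artery-like against vein-like wells, *Fabp4* was at 0.00402 and 0.00408 with DESeq2 size factors and the Wald test, 0.35 with limma on mean log2 CPM, 0.29 without the replicate block, 0.54 and 0.52 at the 10 and 300 CPM limits and 0.0195 on plate A. *Lpl* was at 0.53 and 0.68 with the 2 limma settings, 1.04 without the replicate block, 1.12 at the 10 CPM limit and 0.69 on plate B. *Gpihbp1* was at -0.35 with limma on mean log2 CPM, *Pparg* at -1.40 at the 10 CPM limit and *Tcf15* at -0.63 on plate A. Values without either replicate are those given within the other replicate and have no test.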
